A study of Mus musculus with 6 samples.

Results

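Nox4 and 8 genes of transforming growth factor beta (TGF-beta) signalling were read from Illumina MouseWG-6 v2 arrays of mouse embryonic fibroblast (MEF) lines with and without Rnaseh2b, which encodes a subunit of the nuclease RNase H2. The 9 genes were the oxidase gene Nox4, the ligand genes Tgfb1, Tgfb2 and Tgfb3, the receptor genes Tgfbr1 and Tgfbr2, the target gene Tgfbi and the feedback genes Smad7 and Skil. All 18 probes named for them among the 45281 probes of the array were taken, and 12 of these, for 8 genes, were above background (detection p under 0.01) on at least 1 array, of 10160 genes so measured. The genes were chosen by role, with their log2 differences between these genotypes on these same arrays already known, so those differences are given here as a description, with no p-value, and the counts of calls among them serve only to place them beside all genes.

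The lines compared were 2 Rnaseh2b-/- and 4 Rnaseh2b+/+ MEF lines, every one of them also p53-/- and on the C57BL/6J background. Each line came from a single whole embryo at E10.5, was passage matched and was kept at 3% O2, and RNA was taken 20 h after fresh medium was added to 200000 plated cells. The null allele lacks an exon removed by Cre recombinase. The study picked these Rnaseh2b-/- lines from a larger set for their stronger induction of interferon-stimulated genes, so they need not stand for Rnaseh2b-/- lines in general.

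TGF-beta ligands are secreted in a latent complex, are released from it by integrins, thrombospondin or proteases, and signal through a type II receptor that activates a type I receptor. The type I receptor phosphorylates Smad proteins, which enter the nucleus, raise the transcription of matrix and contractile genes in fibroblasts, and also induce inhibitors of the same pathway. Nox4 is an NADPH oxidase of membranes that releases hydrogen peroxide and is known as a gene that TGF-beta induces when fibroblasts turn into myofibroblasts.

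Each array detected 15519 to 16114 probes above background. Rnaseh2b, the targeted gene, had a normalised log2 signal of 5.43 and 5.53 in the Rnaseh2b-/- lines and of 9.81, 9.17, 9.48 and 9.50 in the Rnaseh2b+/+ lines, which matches the labels. The difference was -4.01 on the log2 scale (limma adjusted p = 0.00121), and 1 of its 2 probes was above background in 1 Rnaseh2b-/- line, the other in neither. Whether the probes lie in the removed exon was not examined. The mean log2 signal of 10 fibroblast and mesenchyme markers was 10.34 and 10.80 in the Rnaseh2b-/- lines and 10.89 to 11.03 in the Rnaseh2b+/+ lines, and all 10 markers were above background. That of skeletal and cardiac muscle markers (13 of 17 tested) was 11.08 in Rnaseh2b-/- replicate 1 and 7.20 in replicate 2, against 5.98 to 6.98 in the Rnaseh2b+/+ lines. That of simple epithelium markers (7 of 10 tested) was 8.44 and 7.23 in the Rnaseh2b-/- lines, against 5.08 to 5.90 in the Rnaseh2b+/+ lines. Muscle markers were therefore high mainly in 1 Rnaseh2b-/- line, while epithelial markers were high in both. Smooth muscle markers (6 of 7 tested) ranged from 7.63 to 7.73 in the Rnaseh2b-/- lines and from 7.74 to 8.23 in the Rnaseh2b+/+ lines. Of the defining markers, Ckm, Myh6, Cnn1, Epcam, Cldn4 and Cldn6 were not above background on any array, nor were Pecam1, Cdh5 and Kdr of endothelium, Ptprc, Csf1r and Adgre1 of blood, or Sox2 and Sox10 of the nervous system. In the Rnaseh2b-/- lines the tested markers averaged 6.13 to 6.45 for endothelium (2 of 8), 5.38 to 5.42 for blood (2 of 10) and 6.54 to 7.53 for neural cells (3 of 8). In the Rnaseh2b+/+ lines they averaged 5.62 to 6.09, 5.05 to 6.32 and 5.89 to 6.44 for the same cell types. What part these differences have in the results below was not tested. In such bulk RNA, fewer cells of a type and less RNA per cell cannot be told apart.

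**Figure D1:**
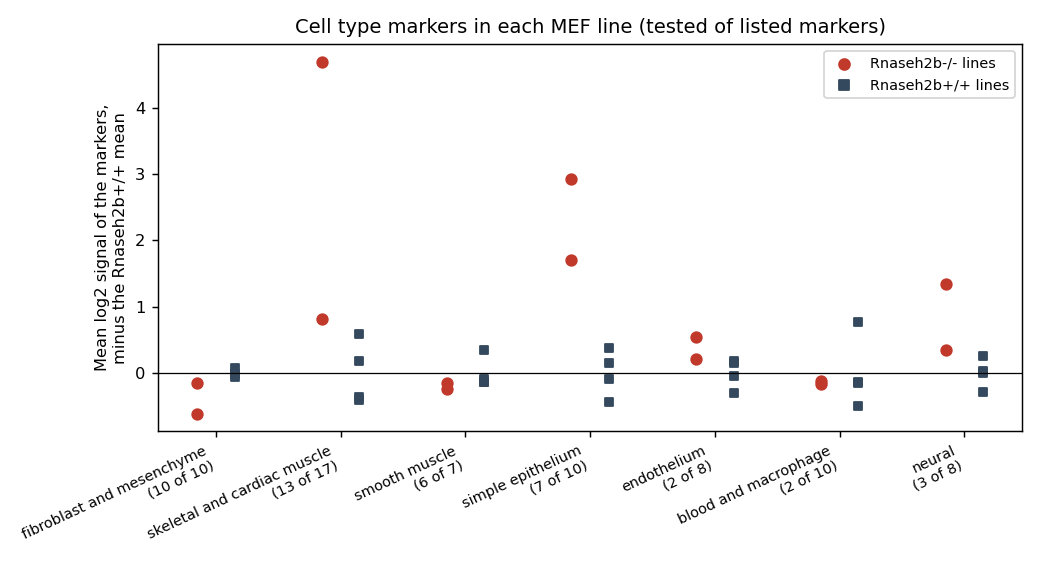
Mean log2 signal of the tested markers of each cell type, minus the mean of the Rnaseh2b+/+ lines, with Rnaseh2b-/- lines as red circles and Rnaseh2b+/+ lines as dark squares. Muscle markers lay 4.69 above the Rnaseh2b+/+ mean in Rnaseh2b-/- replicate 1 and 0.81 above it in replicate 2, and fibroblast markers lay at -0.60 and -0.15.

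Nox4 was lower in both Rnaseh2b-/- lines than in any Rnaseh2b+/+ line. Its single probe had a normalised log2 signal of 6.30 and 6.14 in the Rnaseh2b-/- lines, against 7.37, 7.66, 7.99 and 7.58 in the Rnaseh2b+/+ lines. The groups were 1.07 apart at their nearest lines, which is more than the 0.63 that the Rnaseh2b+/+ lines spanned among themselves. Means were 6.22 ± 0.11 (SD, n = 2) in Rnaseh2b-/- lines and 7.65 ± 0.26 (SD, n = 4) in Rnaseh2b+/+ lines. This is a log2 difference of -1.43 (standard error 0.19), or 2.69-fold lower. The probe was above background on all 6 arrays. As deposited, before background correction and normalisation, its intensity was 156.0 and 157.3 in the Rnaseh2b-/- lines and 273.5, 350.1, 364.1 and 274.8 in the Rnaseh2b+/+ lines, and the arrays' own median intensities were 107.6 and 115.2 in the Rnaseh2b-/- lines and 124.1 to 129.3 in the Rnaseh2b+/+ lines. Without background correction the log2 difference of Nox4 was -0.80, so the size of the fold depends on that step. Both Rnaseh2b-/- lines also lay below all others in the deposited intensities.

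**Figure D2:**
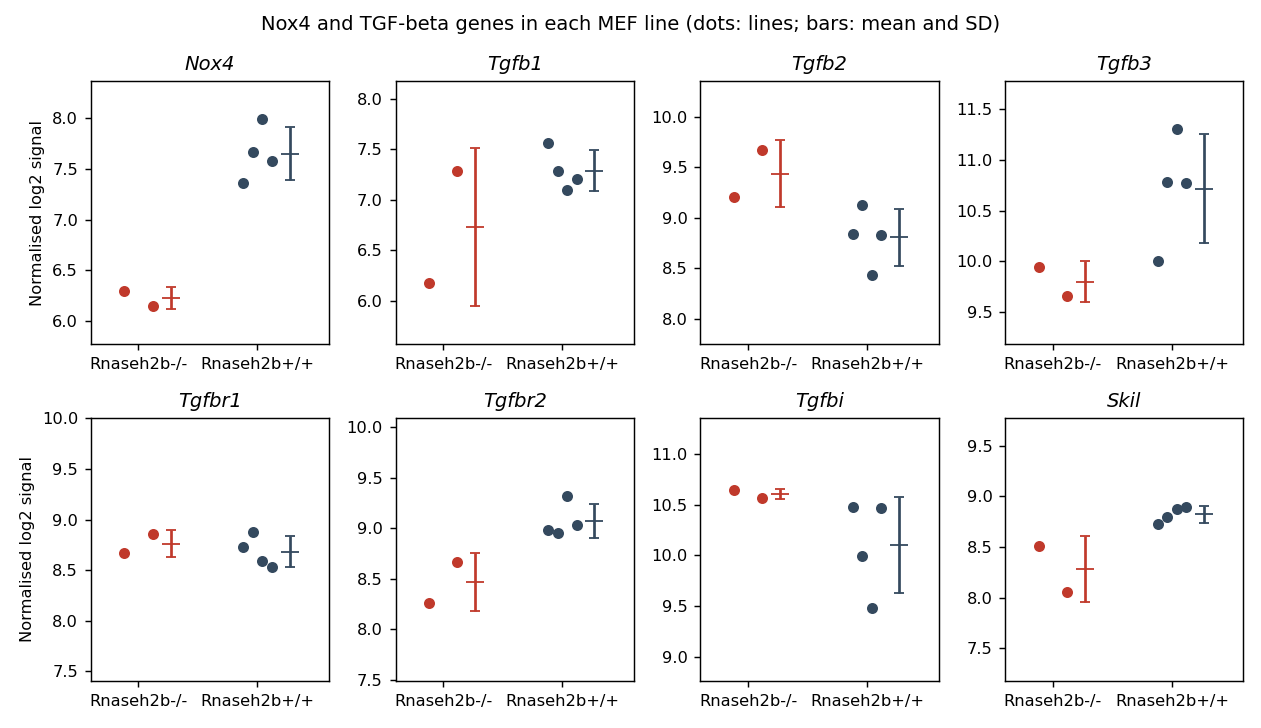
Normalised log2 signal of the 8 genes above background in each line, with Rnaseh2b-/- lines in red left of Rnaseh2b+/+ lines in dark blue. Bars give the mean and SD, and every panel spans the same log2 range. Nox4 shows the widest gap between the groups (1.07), and Tgfb1 is low in 1 Rnaseh2b-/- line alone (6.18).

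In the fit over all genes, limma placed 1 of the 8 genes measured (Nox4) as lower at an adjusted p under 0.05 and none as higher (at an unadjusted p under 0.05, 1 was higher and 4 were lower). Of all 10160 genes tested, 0.157% were lower and 0.354% higher by this rule, and 9.13% and 7.99% at the unadjusted p. Both Rnaseh2b-/- lines lay below all 4 Rnaseh2b+/+ lines for 4 of the 8 genes (Nox4, Tgfb3, Tgfbr2 and Skil) and above them for 2 (Tgfb2 and Tgfbi), against 15.1% and 12.5% of all genes. These counts describe genes proposed with the contrast in view and carry no weight as evidence. The log2 difference was above 0 for 3 of the 8 genes and below 0 for 5 (47.4% and 52.6% of all genes). The median log2 difference of the 8 genes was -0.54, and that of all genes -0.02. The count of 1 became 0 without Rnaseh2b-/- replicate 1, without Rnaseh2b+/+ replicates 2, 3 or 4, with no filter on dim probes, with no background correction and with the replicate number as a block. The log2 difference of Nox4 stayed between -1.52 and -1.32 whichever line was left out.

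The 3 ligand genes did not move together. Tgfb2, whose product is prominent in the embryo, had log2 signals of 9.20 and 9.67 in the Rnaseh2b-/- lines and of 8.84, 9.13, 8.43 and 8.83 in the Rnaseh2b+/+ lines. The Rnaseh2b-/- lines were above all others, the nearer of them by only 0.08, with a log2 difference of 0.63 (standard error 0.23, and 0.40 without Rnaseh2b-/- replicate 2). Tgfb3, a ligand known for its part in closure of the palate, had signals of 9.94 and 9.66 in the Rnaseh2b-/- lines, against 10.00, 10.78, 11.30 and 10.78 in the Rnaseh2b+/+ lines. Here both Rnaseh2b-/- lines were lower, by a log2 difference of -0.92 (standard error 0.33), but Rnaseh2b+/+ replicate 1 lay only 0.06 above the nearer of them. Tgfb1, the most widely expressed of the ligands in adult tissue, had signals of 6.18 and 7.29 in the Rnaseh2b-/- lines and of 7.57, 7.28, 7.09 and 7.20 in the Rnaseh2b+/+ lines. Its groups overlapped. Rnaseh2b-/- replicate 1 lay 1.10 below the Rnaseh2b+/+ mean while replicate 2 lay at that mean, so the log2 difference of -0.55 (standard error 0.30) came from replicate 1. That line also had the highest muscle, epithelial and neural marker signals and the lowest fibroblast signal. Whether any of these bears on Tgfb1 was not tested.

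The receptors differed from each other as well. Tgfbr2 encodes the type II receptor that binds the ligand first. Averaged over its 2 probes above background, it had log2 signals of 8.26 and 8.67 in the Rnaseh2b-/- lines, against 8.98, 8.95, 9.32 and 9.03 in the Rnaseh2b+/+ lines. Each Rnaseh2b-/- line was below every Rnaseh2b+/+ line, by 0.28 at the nearest, and the log2 difference was -0.60 (standard error 0.18, and -0.40 without Rnaseh2b-/- replicate 1). The brighter probe gave -0.61 and the dimmer -0.60, so the 2 probes gave nearly the same difference. With the probes below background averaged in, it was -0.30. Tgfbr1 encodes the type I receptor, the kinase that phosphorylates Smad2 and Smad3. Its log2 signals were 8.67 and 8.86 in the Rnaseh2b-/- lines, against 8.73, 8.88, 8.59 and 8.53 in the Rnaseh2b+/+ lines. The groups overlapped, and the log2 difference of 0.08 (standard error 0.15) was smaller than its error, with 0.05 and 0.11 at the 2 probes above background, and its sign turned under median scaling (-0.09), with no filter on dim probes (-0.04), with the replicate number as a block (-0.05) and without Rnaseh2b-/- replicate 2 (-0.02).

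Of the genes that the pathway induces, the feedback gene Skil was lower and the matrix gene Tgfbi was not. Skil encodes SnoN, a repressor that holds Smad complexes inactive and that TGF-beta first degrades and then induces. It had log2 signals of 8.51 and 8.06 in the Rnaseh2b-/- lines, against 8.72, 8.79, 8.87 and 8.90 in the Rnaseh2b+/+ lines. The Rnaseh2b+/+ lines spanned only 0.18, both Rnaseh2b-/- lines lay below them by at least 0.21, and the log2 difference was -0.54 (standard error 0.16), with -0.52 and -0.55 at its 2 probes above background. Replicate 2 lay farther below the Rnaseh2b+/+ mean (-0.77) than replicate 1 (-0.31). Tgfbi encodes a secreted matrix protein named for its induction by TGF-beta. Its log2 signals were 10.64 and 10.57 in the Rnaseh2b-/- lines, against 10.48, 9.99, 9.48 and 10.47 in the Rnaseh2b+/+ lines. Each Rnaseh2b-/- line was above all others, by only 0.09 at the nearest, and the log2 difference was 0.50 (standard error 0.29), with 0.50 at each probe and 0.29 without Rnaseh2b+/+ replicate 3. The Rnaseh2b-/- lines were only 0.07 apart, and the Rnaseh2b+/+ lines were spread more widely.

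Smad7 encodes the inhibitory Smad that blocks the type I receptor. Its probe was not above background on any array, with log2 signals of 4.46 and 4.42 in the Rnaseh2b-/- lines and 4.34 to 4.44 in the Rnaseh2b+/+ lines. No difference could be detected at this signal, which says nothing of whether the gene is expressed. The other 5 probes below background were 2 of Tgfbr1, 2 of Tgfbr2 and 1 of Skil, with log2 signals of at most 5.28 on any array and differences of -0.33 to 0.06.

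**Figure D3:**
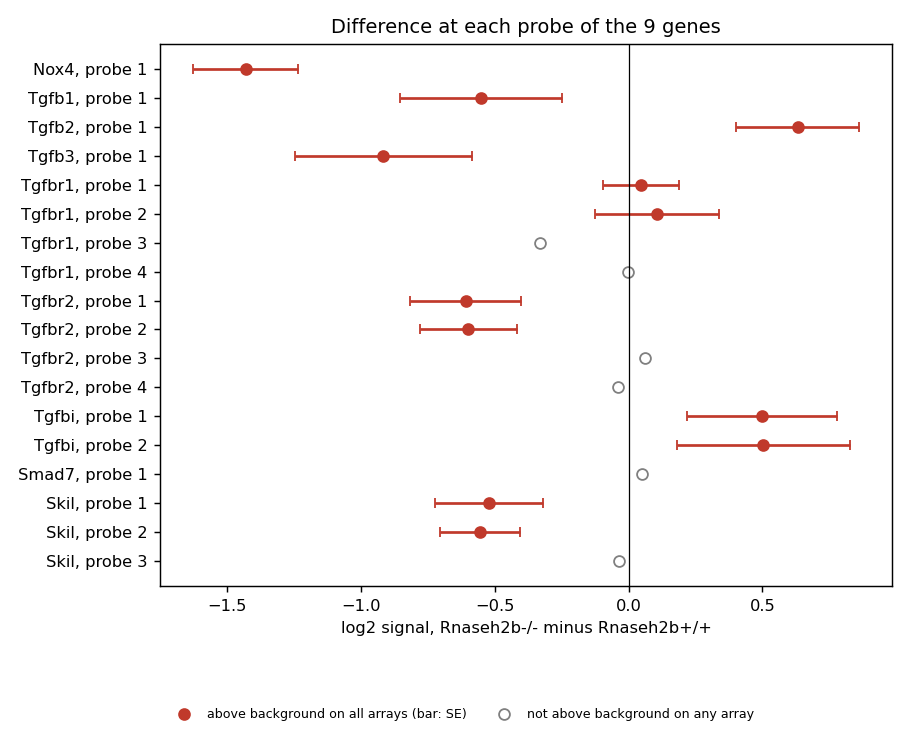
Log2 signal in Rnaseh2b-/- lines minus that in Rnaseh2b+/+ lines at each of the 18 probes, with the standard error for the 12 probes above background (filled) and none for the 6 that were not (open). Probes of one gene are numbered by falling signal. The pairs of filled probes of Tgfbr1, Tgfbr2, Tgfbi and Skil lie close together, and Nox4 lies farthest from 0 at -1.43.

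The windows around the transcription starts of 3 of these genes are shown because Nox4 and Tgfbr2 were low and Tgfb2 high in the same lines. The sequences are from RefSeq (GRCm38.p6), 5′ to 3′ on the gene's strand, with 250 bases before and 50 after the start. Capitals mark CAGAC, a motif that Smad proteins bind, or its reverse complement.
Nox4 (chr7:87246399-87246698, + strand): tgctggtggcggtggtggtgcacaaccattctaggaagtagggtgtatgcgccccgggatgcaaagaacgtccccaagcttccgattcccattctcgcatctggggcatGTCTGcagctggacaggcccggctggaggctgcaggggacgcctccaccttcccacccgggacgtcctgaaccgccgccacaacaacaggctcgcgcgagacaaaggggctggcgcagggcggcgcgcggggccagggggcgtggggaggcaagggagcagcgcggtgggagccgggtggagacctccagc
Tgfbr2 (chr9:116175314-116175613, - strand): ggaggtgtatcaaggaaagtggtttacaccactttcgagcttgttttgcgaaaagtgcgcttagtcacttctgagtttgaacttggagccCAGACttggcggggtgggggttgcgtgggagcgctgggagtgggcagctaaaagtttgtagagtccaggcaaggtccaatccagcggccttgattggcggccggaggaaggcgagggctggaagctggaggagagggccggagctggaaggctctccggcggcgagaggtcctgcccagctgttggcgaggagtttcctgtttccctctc
Tgfb2 (chr1:186705940-186706239, - strand): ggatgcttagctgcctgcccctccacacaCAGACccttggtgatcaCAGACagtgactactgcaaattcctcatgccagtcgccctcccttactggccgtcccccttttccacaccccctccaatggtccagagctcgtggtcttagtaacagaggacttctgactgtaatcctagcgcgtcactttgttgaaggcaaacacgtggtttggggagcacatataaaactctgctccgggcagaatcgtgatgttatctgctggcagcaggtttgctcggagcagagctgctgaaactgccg
CAGAC occurred 1 time in the window of Nox4, 1 time in that of Tgfbr2 and 2 times in that of Tgfb2, on either strand. Of the other windows, that of Tgfbi held it 2 times, 1 of the 2 of Tgfbr1 held it 1 time, and that of Tgfb1 and the other of Tgfbr1 did not hold it. It was in 49.6% of all 32851 such windows. GGCGC, a GC-rich motif that Smads also bind, occurred 3 times in the window of Nox4, 2 times in that of Tgfb1, 4 times in that of Tgfbi and 3 times in 1 of the 2 of Tgfbr1, and not in those of Tgfbr2 and Tgfb2, and 36.9% of all windows held it. TGANTCA, the motif of AP-1, was in none of the 7 windows examined, which cover 6 of the 9 genes, and in 7.81% of all windows. No window of Smad7, Tgfb3 or Skil was examined. Matches of different motifs may share bases. These matches describe the letters in short windows, not binding.

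Nox4 had the most similar pattern across the 6 lines in Gata2, P4ha3, Pmepa1, Nacad and Lgalsl, by the root mean square difference between log2 signals after each gene's mean was subtracted. That difference was 0.10 for Gata2, a transcription factor of blood and vascular development, and 0.11 for P4ha3, a subunit of the prolyl 4-hydroxylase that modifies collagen. It was 0.17 for Pmepa1, which encodes a membrane protein that restrains TGF-beta signalling, 0.18 for Nacad and 0.19 for Lgalsl. Their log2 differences between Rnaseh2b-/- and Rnaseh2b+/+ lines ranged from -1.53 for Lgalsl to -1.09 for Pmepa1, which their likeness to Nox4 fixes in advance. P4ha3 had signals of 6.37 and 6.32 in the Rnaseh2b-/- lines, against 7.36, 7.94, 8.18 and 7.55 in the Rnaseh2b+/+ lines, with replicate 3 highest and replicate 1 lowest of the Rnaseh2b+/+ lines as for Nox4. Among the TGF-beta genes above, Tgfb3 came nearest to Nox4 (0.32, place 57 of 10159 genes), followed by Tgfbr2 (0.43, place 242) and Skil (0.46, place 324). Tgfb2 and Tgfbi were far from it, at 1.05 and 1.04. These places follow largely from the sign and size of each gene's difference between the genotypes. Those differences were known when the genes were chosen, so the places are no evidence of shared regulation.

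**Figure D4:**
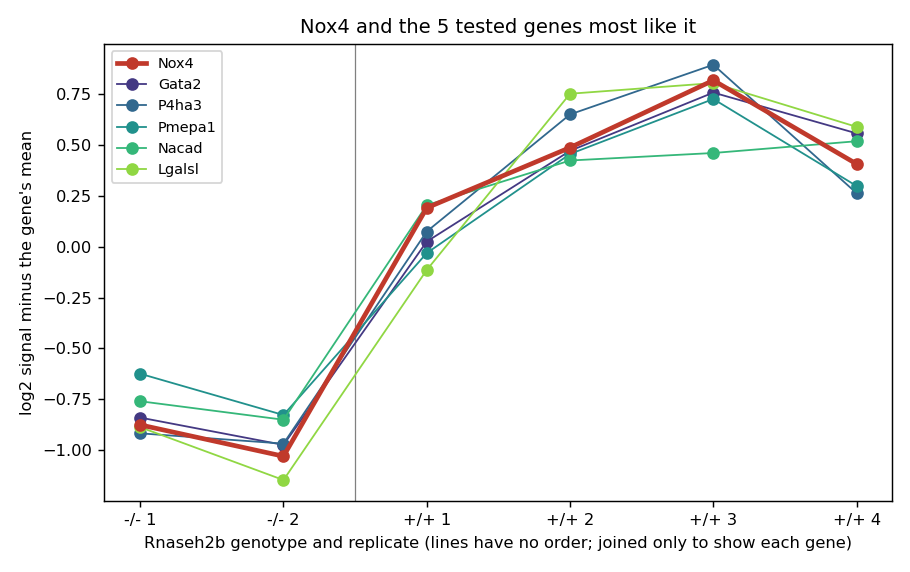
Log2 signal of Nox4 (thick red) and of the 5 tested genes most like it, minus each gene's mean over the 6 lines, with Rnaseh2b-/- lines left of the grey line and Rnaseh2b+/+ lines right of it. In each of these genes both Rnaseh2b-/- lines lie below all 4 Rnaseh2b+/+ lines, and Rnaseh2b+/+ replicate 1 is the lowest of its group.

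The other genes of the pathway were taken from 6 lists drawn up by role. The lists were chosen with earlier results of these data known, so counts over them are a description and not independent evidence. Of 145 such genes, 134 had a probe with a single symbol, and 100 could be tested, being above background on 1 array or more. At an adjusted p under 0.05 (limma, over all genes tested) 1 of them was higher (Dcn) and 1 lower (Itga11), against 0.354% and 0.157% of all genes. At an unadjusted p under 0.05, 3 were higher and 24 lower, against 7.99% and 9.13% of all genes. Without Rnaseh2b-/- replicate 1, the line with high muscle markers, these counts were 7 higher and 13 lower (678 and 502 of all genes). Under median scaling they were 3 higher and 31 lower, while those over all genes were 526 and 1678. Both Rnaseh2b-/- lines lay below all Rnaseh2b+/+ lines for 26 of the 100 and above them for 4, against 15.1% and 12.5% of all genes. The median log2 difference over the 100 was -0.12 (-0.02 over all genes). Genes of one pathway are not independent of each other, and no test of the lists was made. The same shares of all genes stand beside the counts of each list below.

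Among genes known to be induced by TGF-beta in fibroblasts, 1 of 29 tested was lower and none higher at the adjusted threshold (0.157% and 0.354% of all genes). The unadjusted threshold of 0.05 gave 10 lower and none higher (9.13% and 7.99% of all genes). Of the 29, 21 had a negative log2 difference (52.6% of all genes). Both Rnaseh2b-/- lines lay below all Rnaseh2b+/+ lines for 11 (15.1% of all genes). The median difference was -0.20. Itga11, a chain of a collagen-binding integrin, had log2 signals of 8.12 and 8.63 in the Rnaseh2b-/- lines, against 9.45, 9.86, 9.85 and 9.80 in the Rnaseh2b+/+ lines (log2 fold change -1.37, standard error 0.20, limma adjusted p = 0.0481). Snai1, a repressor of epithelial genes, had signals of 7.26 and 7.37 in the Rnaseh2b-/- lines, against 8.20, 8.07, 8.40 and 8.15 in the Rnaseh2b+/+ lines (log2 fold change -0.89, standard error 0.14, adjusted p = 0.0608). Adam12, a membrane metalloprotease, was at -0.85 (standard error 0.18, adjusted p = 0.0904), and Ccn2, or connective tissue growth factor, at -0.50 (standard error 0.13, adjusted p = 0.133). Each of these 4 genes was lower in both Rnaseh2b-/- lines than in all others, and Itga11 alone passed. Itga11 lost its call without Rnaseh2b-/- replicate 1 or without Rnaseh2b+/+ replicates 2, 3 or 4 (adjusted p from 0.139 to 0.155), with the brightest probe of each gene (0.0708), each probe tested (0.0636), no filter (0.0750) and the replicate block (0.266). Snai1 passed under 7 of 17 alternatives (adjusted p from 0.0419 to 0.0494 there), and Ccn2 under 1, the variance trend (0.0477). Some of these genes also mark fibroblasts (Col1a1, Col1a2, Col3a1) or smooth muscle (Acta2, Tagln), whose mean marker signals were also lower in the Rnaseh2b-/- lines, as given above. For smooth muscle the nearest lines of the groups were at 7.73 and 7.74, and Rnaseh2b+/+ replicate 1 was highest at 8.23.

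Of the genes that hold TGF-beta latent, release it or bind it in the matrix, 1 of 17 tested was higher and none lower at the adjusted threshold (1 and 2 at the unadjusted one), with a median of -0.33. Dcn, the proteoglycan decorin, which binds TGF-beta, had log2 signals of 11.30 and 11.82 in the Rnaseh2b-/- lines, against 10.00, 9.95, 9.24 and 9.38 in the Rnaseh2b+/+ lines. It was 3.78-fold higher (log2 fold change 1.92, standard error 0.28, limma adjusted p = 0.0459), and no longer passed when any line other than Rnaseh2b+/+ replicate 1 was left out (adjusted p from 0.0572 to 0.152). The call was also lost with no filter (0.0772), median scaling (0.0615), the brightest probe (0.0572) and the replicate block (0.266). Thbs1, or thrombospondin 1, an activator of latent TGF-beta, had signals of 8.84 and 9.23 in the Rnaseh2b-/- lines, against 10.504, 10.01, 10.12 and 10.26 in the Rnaseh2b+/+ lines (log2 fold change -1.19, standard error 0.19, adjusted p = 0.0576). Its groups did not overlap, and Thbs1 passed under 7 of 17 alternatives. Among these was the fit without Rnaseh2b-/- replicate 2, which left 1 line in that group. In the others the adjusted p was from 0.0302 to 0.0474. Ltbp4, a latent TGF-beta binding protein, was at -0.54 (adjusted p = 0.180). Itgb6, an epithelial integrin chain that activates TGF-beta, was above background in Rnaseh2b-/- replicate 1 alone (6.93, against 4.54 in replicate 2 and 4.42 to 4.55 in the Rnaseh2b+/+ lines), the line with the highest epithelial markers.

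Inside the cell, none of 19 tested Smads and regulators passed in limma (unadjusted p under 0.05 in 1 that was higher and 3 that were lower), with a median of -0.03. Pmepa1 had log2 signals of 6.76 and 6.56 in the Rnaseh2b-/- lines, against 7.35, 7.84, 8.11 and 7.68 in the Rnaseh2b+/+ lines (log2 fold change -1.09, standard error 0.22, adjusted p = 0.0884). Ski, the relative of Skil that also represses Smads, was at -0.58 (standard error 0.18, adjusted p = 0.197), and at -0.37 without Rnaseh2b-/- replicate 1. Nedd4l, a ubiquitin ligase that acts on phosphorylated Smads, was at 0.69 (standard error 0.16, adjusted p = 0.116). Crebbp, a coactivator, was above background in neither of the Rnaseh2b-/- lines and was at least 1.23-fold lower in the main processing (adjusted p = 0.121). The signal transducers themselves did not pass, with log2 fold changes of 0.15 for Smad2 (adjusted p = 0.755) and 0.08 for Smad3 (adjusted p = 0.808).

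Of 16 other receptors and co-receptors, none passed (unadjusted p under 0.05 in 1 that was higher and 2 that were lower, median 0.05). Cd109, a co-receptor that dampens TGF-beta signalling, was at -0.81 (standard error 0.19, adjusted p = 0.116), and Bmpr1a, a receptor of bone morphogenetic proteins, at -0.39 (standard error 0.13, adjusted p = 0.206). Amhr2, the receptor of anti-Müllerian hormone, and Hjv, a co-receptor of bone morphogenetic proteins, were each above background in 1 Rnaseh2b-/- line and no Rnaseh2b+/+ line, so that no size of difference was measured beyond a bound close to 1 (adjusted p = 0.146 for Amhr2 and 0.384 for Hjv). Of 10 other ligands none passed (unadjusted p under 0.05 in 4, all lower, median -0.01). Bmp3 had log2 signals of 4.70 and 4.83 in the Rnaseh2b-/- lines, neither above background, against 4.90, 7.62, 7.80 and 8.43 in the Rnaseh2b+/+ lines, so that Rnaseh2b+/+ replicate 1 sat with the Rnaseh2b-/- lines. With that line at its measured signal, Bmp3 was at least 3.08-fold lower in the main processing (adjusted p = 0.240). This bound is set against the dimmest probes above background on each Rnaseh2b-/- array. Gdf10, a relative of Bmp3, was above background in 3 of 4 Rnaseh2b+/+ lines. By the same kind of bound it was at least 2.01-fold lower in the main processing (adjusted p = 0.283). Bmp4 was at -1.15 (standard error 0.44, adjusted p = 0.262), with overlapping groups and most of the difference in Rnaseh2b-/- replicate 2 (-0.50 without it, -1.79 without replicate 1), and Inhba, the chain of activin A, at -0.61 (standard error 0.24, adjusted p = 0.267).

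Secreted antagonists gave no call among 9 tested (unadjusted p under 0.05 in 3, all lower, median -0.17). Grem1, or gremlin, an antagonist of bone morphogenetic proteins, had log2 signals of 10.95 and 11.41 in the Rnaseh2b-/- lines, against 11.99, 12.21, 11.94 and 12.25 in the Rnaseh2b+/+ lines (log2 fold change -0.92, standard error 0.18, limma adjusted p = 0.0815). Twsg1 was at -0.41 (adjusted p = 0.231) and Fstl3, which binds activin, at -0.55 (adjusted p = 0.244). Sostdc1 was above background in 3 of 4 Rnaseh2b+/+ lines and in neither Rnaseh2b-/- line. Its signals were 4.69 and 4.94 in the Rnaseh2b-/- lines, against 4.57, 8.23, 9.83 and 8.04 in the Rnaseh2b+/+ lines. The groups overlapped, as Rnaseh2b+/+ replicate 1 lay below both Rnaseh2b-/- lines. With that line at its measured signal, Sostdc1 was at least 4.29-fold lower in the main processing (adjusted p = 0.304). Bmp3 and Sostdc1 both passed without Rnaseh2b+/+ replicate 1 (adjusted p = 0.0119 and 0.0322).

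**Figure D5:**
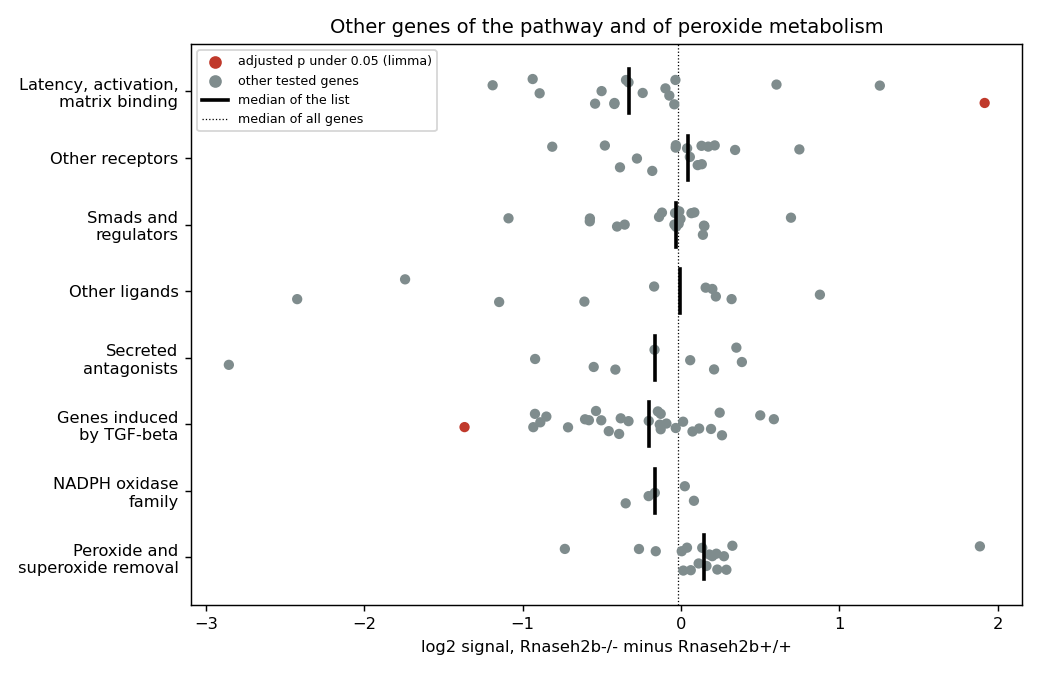
Log2 signal in Rnaseh2b-/- lines minus that in Rnaseh2b+/+ lines for the tested genes of each list, Nox4 and the other genes described first left out. Points are genes (red where the limma adjusted p is under 0.05), the black bar is the list's median, and the dotted line is the median of all genes (-0.02). Dcn and Itga11 are the red points, and the median of the induced genes lies at -0.20.

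No gene around the oxidase itself passed the test. Of 16 genes of the NADPH oxidase family and its partners, 14 had a probe with a single symbol and 5 were above background. None passed in limma, nor at an unadjusted p under 0.05. Cyba encodes p22phox, the membrane partner that Nox4 needs. Its log2 signals were 10.96 and 11.12 in the Rnaseh2b-/- lines and 11.40, 11.03, 11.07 and 11.48 in the Rnaseh2b+/+ lines, with overlapping groups (log2 fold change -0.20, standard error 0.18, adjusted p = 0.586). Poldip2, a protein known to raise Nox4 activity, was at 0.08 (standard error 0.15, adjusted p = 0.810), and Noxo1, a partner of the related Nox1, at -0.17 (adjusted p = 0.730). Noxa1, another partner of Nox1, was above background in neither Rnaseh2b-/- line and in 1 Rnaseh2b+/+ line, and no fold is given (adjusted p = 0.563). Of 18 tested enzymes that remove superoxide and peroxide, none passed. At an unadjusted p under 0.05 (limma) 1 was higher (7.99% of all genes). Of the 18, 15 had a positive log2 difference (47.4% of all genes), and the median was 0.15. Gpx3, a secreted glutathione peroxidase, had log2 signals of 11.75 and 10.95 in the Rnaseh2b-/- lines, against 9.84, 9.28, 8.67 and 10.06 in the Rnaseh2b+/+ lines. Its groups did not overlap, and it did not pass (log2 fold change 1.89, standard error 0.41, adjusted p = 0.0988). Prdx1 was at 0.32 (adjusted p = 0.304), Srxn1, which repairs oxidised peroxiredoxins, at 0.27 (adjusted p = 0.425), and Gpx1 at -0.27 (adjusted p = 0.456). Under median scaling, where the median over all genes was -0.16, Gpx3 was at 1.67, Prdx1 at 0.16, Srxn1 at 0.10 and Gpx1 at -0.55.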

How the data were processed

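RNA of 2 Rnaseh2b-/- and 4 Rnaseh2b+/+ p53-/- MEF lines was hybridised to 1-colour Illumina BeadChips. The labels name each line a biological replicate. The authors deposited the bead-summary intensity of each probe, exported from BeadStudio without background correction or normalisation, with a detection p-value for each probe against negative control beads, which the authors' software computed. Log2 values that the authors deposited after processing with neqc of limma (background correction, then quantile normalisation) served here as an alternative.

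The intensity was processed with neqc of limma 3.58.1 in R 4.3.3 (offset 16, background estimated from the detection p-values), giving values within 0.109 of the deposited log2 values. The platform annotation gave 34885 probes a single symbol, and the 18 with several and 10378 with none were left out. A probe was kept if 1 array or more detected it (p under 0.01), the kept probes of a gene were averaged, and 10160 genes were tested with a linear model and moderated variances, with Benjamini-Hochberg adjustment and a threshold of 0.05. Where no array of a group detected a gene, its fold is a bound for the main processing, and none is given where that bound is under 1. Lines of the other group enter the bound at their measured signal, also where they were not detected. Without background correction the log2 differences were smaller, at -1.55 for Sostdc1, -1.15 for Bmp3, -0.75 for Gdf10 and -0.19 for Crebbp. The number of arrays limits the precision. The linear model and its calls were tested on simulated log2 values of genes. The steps before the model were not simulated, and the planted differences were larger than that of Nox4.

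The 9 genes and all lists were chosen with earlier results of these data known. Genes named were these 9, Rnaseh2b, up to 4 of each of 8 lists (those past the threshold by size of change, then by smallest p) and the 5 most like Nox4. Smad2 and Smad3 fall outside it and were picked with their values in view. Alternatives changed the filter, the normalisation, the treatment of probes, the variance model and the lines used, or took the replicate number as a block.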

Additional observations from a re-analysis of the deposited data

Results flagged for a closer look

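In 4 of 52 groups of values examined among the 4 Rnaseh2b+/+ lines, 1 line stood far from the others, where chance gives about 2.6 (1 group in 20). In each it was replicate 1. The gap to the nearest line over the whole range was 0.895 for Cd109, 0.841 for Itga11 and 0.942 for Gpx1, all with replicate 1 low, and 0.908 for the mean of the smooth muscle markers, with replicate 1 high. None of Nox4 and the TGF-beta genes described first was among the 4.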

How the results depend on the processing

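With 2 lines against 4, the calls depend on single lines. The log2 difference of Nox4 kept its sign throughout, from -1.52 to -1.32 with a line left out, and was smaller without background correction (-0.80) and with an offset of 50 (-1.12). Leaving out a line gave 0 or 1 of the 9 genes lower, and 0 to 296 genes higher and 1 to 114 lower in all. Of the other TGF-beta pathway genes it gave 0 to 2 higher and 0 to 6 lower. Without a filter on dim probes, 18 genes were higher and 9 lower, with 0 of the 9 genes and 0 and 0 pathway genes among them. Probes above background on at least 2 arrays gave 27 genes lower, and 3 pathway genes lower. No background correction gave 0 of the 9 genes lower and 3 pathway genes lower. An offset of 50 gave 3 pathway genes lower. Under median scaling the log2 difference over all genes had a median of -0.16, and it gave 25 genes lower, 0 pathway genes higher and 3 lower, and the brightest probe of a gene gave 0 pathway genes higher. A variance trend with robust fitting gave 55 genes higher, 36 lower and 5 pathway genes lower. Without Rnaseh2b+/+ replicate 1, Pmepa1 (adjusted p = 0.0322) and Cd109 (0.0276) also passed in limma. In Rnaseh2b-/- replicate 1 alone against the Rnaseh2b+/+ lines, the log2 fold changes were -1.38 for Thbs1, -1.15 for Grem1 and 2.45 for Itgb6. Thbs1 passed in limma without Rnaseh2b+/+ replicate 1 (adjusted p = 0.0403), and Grem1 with the variance trend (0.0403). Poldip2 changed sign under median scaling (-0.13), as did Noxo1 without Rnaseh2b-/- replicate 1 (-0.36 to 0.033 over the lines left out). The oxidase and antioxidant lists gave no call under any alternative. Where the cause is not in the setting itself, it was not tested. Nothing in the labels says whether lines with the same replicate number share more than that number. Their deviations correlated at 0.0959 and 0.0611. Both values rest on the same difference between the 2 Rnaseh2b-/- lines, so they cannot tell whether an origin was shared. With the replicate number as a block, Nox4 was at -1.29 and limma called 0 genes higher and 0 lower (448 and 461 by unadjusted p), with Rnaseh2b itself at an adjusted p of 0.156, and so 0 of the 9 genes lower and 0 pathway genes higher or lower. Only numbers 1 and 2 hold both genotypes, so this fit rests on those lines and has little left to estimate spread. Few calls could come from it whatever the data, so the calls lost there say little.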
